A study of Mus musculus with 9 samples.

Results

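This account covers the second of the intervals in a series on the mid-foregut of mouse embryos: 26-30 somites set against 21-25 somites, the days on which the lung buds leave the gut tube. It uses 6 of the 9 arrays of the series directly, the 3 of each of these stages, and the other 3 arrays, of 16-20 somites, enter only the estimate of the spread and the values of the preceding interval. All embryos were wild type, with no treatment named in the labels, and were staged by counting somites, the blocks of mesoderm laid down in order along the trunk. The labels place 21-25 somites at embryonic day 9.0 and 26-30 somites at embryonic day 9.5. A replicate was a pool of 5 to 10 pieces of foregut, cut out between the pharyngeal arches in front and the liver behind after neural tube and heart had been taken off, so each value is an average over endoderm, mesenchyme, vessels and blood cells of several embryos. Each pool gave 100 ng of RNA that was amplified in 2 rounds and hybridised to 1 Affymetrix array. The sources used here name neither the strain nor the sex of the embryos.

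The lung arises from the ventral wall of the foregut. Mesoderm beside the tube releases WNT, BMP and FGF ligands, the endoderm answers by switching on the lung regulator Nkx2-1 and returns hedgehog signal to the mesenchyme, and the buds then push out into that mesenchyme. Retinoic acid made in the mesoderm sets up this exchange. Regulators of neighbouring fields (pharynx, thyroid, stomach, pancreas and liver endoderm, somites and heart mesoderm) are read in the same tissue, and their level in a dissected piece depends on where its edges lie.

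No gene passed the test between these stages. By limma on log2 values, 0 of 8675 genes tested (0%) had an adjusted p under 0.05 (Benjamini-Hochberg), and the smallest adjusted p was 0.981. An unadjusted p under 0.05 was reached by 355 genes (4.09%), of which 178 were higher at 26-30 somites (2.05%) and 177 lower (2.04%). By chance alone 433.8 genes would be expected there, so the count found is no excess. In 813 genes (9.37%) all 3 arrays of a stage lay above all 3 of the other, called wholly apart here; 393 of these were higher at 26-30 somites (4.53%) and 420 lower (4.84%). Chance orderings of 3 against 3 arrays also leave genes wholly apart, so the term describes values and is no sign of a stage difference. In the interval before, from 16-20 to 21-25 somites, 954 genes (11%) had an unadjusted p under 0.05. Every gene below is therefore described by its values, each has an adjusted p of at least 0.981, and a count for a class of genes is to be read against these percentages. A list of genes is given by its median and counts only, beside a median over all tested genes of 0.01 with 50.9% of the differences above 0 and 49.1% below. Of 39 list medians 23 took the opposite sign in at least 1 alternative setting, most of them lists close to 0; those of size 0.1 or more that did were Notch, fatty acid, matrix, somite and surface ectoderm, whose values are given with them.

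**Figure D1:**
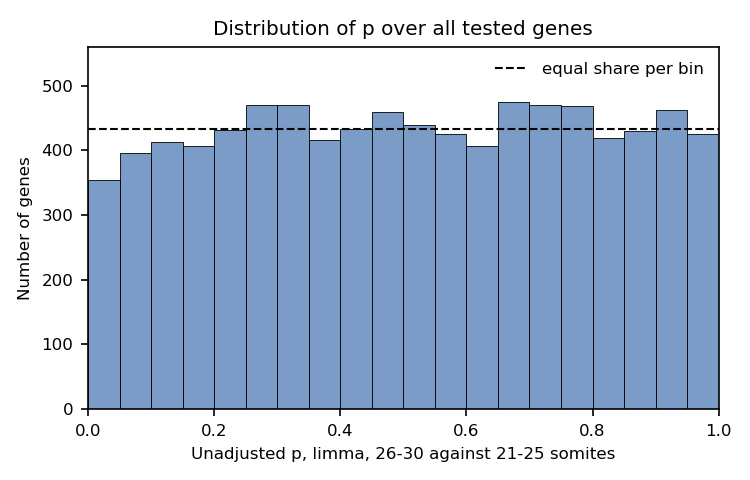
Number of genes (vertical axis) in 20 equal bins of the unadjusted p from limma (horizontal axis) for 26-30 against 21-25 somites, over the 8675 tested genes; the dashed line marks an equal share per bin. The bin nearest 0 holds 355 genes and lies under the line.

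Some arrays differed for reasons that touch many genes. The highest signal was between 27480 and 32584 in 21-25 somites replicate 1 and in 26-30 somites replicates 1 and 2, called the narrow-range arrays, against 43792 to 61749 in the other 6. The 3' to 5' signal ratio of beta-actin, which grows as RNA shortens, was 45.3 in 21-25 somites replicate 2 and 20.9 to 32.5 in the other 5 arrays compared. The same ratio of Gapdh was 40.9 in 26-30 somites replicate 3, 36.4 in 21-25 somites replicate 2 and 16.0 to 21.6 in the other 4, so that 1 array of each stage stood high. Across genes, which do not stand for independent replicates, arrays correlated at 0.92 to 0.972 between the 2 stages and at 0.900 to 0.981 within stages, ranges that overlap. Signals below are linear MAS5 values in replicate order 1, 2 and 3, and where 3 values are followed by "then" and 3 more, the first are those of 21-25 somites. Differences are log2(signal + 26.2) ± SE, 26-30 minus 21-25 somites, and this scale understates the difference of dim genes. In pooled tissue, fewer cells of a type and less RNA per cell cannot be told apart.

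Defining markers of the tissue were mixed. Foxa1, a forkhead factor of endoderm, had signals of 1725 to 2991 over the 6 arrays, and the epithelial genes Epcam and Krt8 had 112.5 to 726 and 2111 to 5115. The mesenchymal markers Wnt2, Barx1 and Hoxb5 had 645 to 1124, 328 to 528 and 403 to 661. Yet 11 of the 30 lung and foregut genes chosen for this comparison were too dim to be tested. Among them Nkx2-1, the defining regulator of lung and thyroid endoderm, had 98.6, 18.8 and 39.8 at 21-25 somites and 27.5, 26.0 and 7.2 at 26-30 somites. Shh, the hedgehog ligand of foregut endoderm, had 0.7 to 22.5, and Foxf1, a hedgehog-dependent factor of gut mesenchyme, 14.8 to 65.0. Fgf10, the ligand toward which lung buds grow, had 48.2 to 60.5, and Tbx4, a T-box factor of lung mesenchyme, 13.8 to 98.4. The others below the filter were Etv4, Etv5, Nog, Osr1, Sox9 and Wnt2b. These genes give no statement about the lung buds, and detection calls that would show which of them exceeded background were not used here.

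The 19 lung and foregut genes that could be tested had the highest median of the regulatory lists, 0.23, with 13 of 19 above 0. Wnt2, Tbx5 and Isl1, all genes of the mesoderm around the early lung and heart field, had an unadjusted p under 0.05, all higher at 26-30 somites. Wnt2, Tbx5 and Foxa2 were wholly apart between the stages, and no gene of the list was wholly apart in the other direction. The list median was 0.09 to 0.47 when each array was left out in turn. Per array, the median deviation of these genes from their own mean was 0.26, -0.29 and -0.14 at 21-25 somites and 0.23, 0.15 and -0.02 at 26-30 somites, so replicate 1 of the earlier stage lay above all later arrays.

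Wnt2, the WNT ligand of lung mesenchyme that helps to specify the lung, had signals of 678, 686.4 and 645 at 21-25 somites and 1012, 895 and 1124 at 26-30 somites. The earlier arrays lie close together and below every later one, and the difference was 0.57 ± 0.22, a ratio of mean signals of 1.51. At 16-20 somites Wnt2 had read 852, 1346 and 1187, each above the arrays of 21-25 somites, and the difference between the intervals (second minus first) was 1.27 ± 0.39, with an adjusted p of 0.754 in limma. Tbx5, a T-box factor that acts with Wnt2 in this mesoderm, had 225, 27.9 and 192 at 21-25 somites and 313, 246 and 359.8 at 26-30 somites. Its difference of 1.20 ± 0.48 leans on the very low second array of the earlier stage, the one with the highest actin ratio, and was 0.49 without it. Isl1, a LIM homeodomain factor of the second heart field and foregut mesoderm, had 1788, 1053 and 967 at 21-25 somites and 2272, 2277 and 1712 at 26-30 somites, with ranges that overlap, and a difference of 0.75 ± 0.29.

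In the endoderm, Foxa2, a forkhead factor required for foregut fate, had 489, 459.9 and 543 at 21-25 somites and 882, 582 and 669.6 at 26-30 somites. The groups are apart by a small margin, with a difference of 0.48 ± 0.22. Its partner Foxa1 had 2991, 1724 and 2041 at 21-25 somites and 2939, 2865 and 2726 at 26-30 somites and a difference of 0.37 ± 0.30; the later arrays are even, and the earlier ones spread across them, so that it was 0.59 without the first and 0.20 without the second array of 21-25 somites. Sox2, a factor of the dorsal foregut that becomes oesophagus, differed by 0.24 ± 0.37, Gata4 by 0.05 ± 0.24 and Gata6, a GATA factor of endoderm and heart, by -0.20 ± 0.22, all with overlapping arrays; leaving out each array gave 0.11 to 0.48 for Sox2 and -0.35 to -0.12 for Gata6. Gata4 changed sign without 1 array, as did Fgfr2, the FGF10 receptor of the epithelium, at -0.02 ± 0.26. Aldh1a2, the enzyme that makes retinoic acid, had 1165, 709 and 523 at 21-25 somites and 1456, 1720.4 and 757 at 26-30 somites and a difference of 0.69 ± 0.39, with the third array of 26-30 somites among the earlier ones. It was 1.04 without that array and 0.44 without the third of 21-25 somites. Rarb, a retinoic acid receptor gene, differed by 0.23 ± 0.24, or by 0.10 to 0.46 when each array was left out. Bmp4, a BMP ligand of ventral mesoderm, had 567, 161 and 284 at 21-25 somites and 513, 383 and 406 at 26-30 somites. That spread gives 0.49 ± 0.34, which was 0.09 without the second array of 21-25 somites and 0.92 without the first.

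Of the remaining genes of this list, Barx1, a homeobox gene of stomach mesenchyme, differed by 0.13 ± 0.30, Id2, an inhibitor of helix-loop-helix factors in lung tips, by 0.23 ± 0.38, and Pdx1, the pancreas and duodenum regulator, by -0.41 ± 0.33. Spry2, an antagonist of FGF signalling, differed by -0.32 ± 0.29 and Dkk1, a secreted WNT antagonist, by -0.19 ± 0.45. None of these had stages wholly apart. When each array was left out, Pdx1 ran from -0.69 to -0.22 and Spry2 from -0.53 to -0.13, and Barx1, Id2 and Dkk1 changed sign when 1 array was left out.

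The wider lists of foregut regulators split evenly. For 24 tested factors of foregut endoderm the median was -0.02, with 12 above 0 and 12 below. The 2 with an unadjusted p under 0.05, the Iroquois homeobox genes Irx5 and Irx3, were lower at 26-30 somites. Irx5 had 466, 344 and 298 at 21-25 somites and 219, 232 and 184 at 26-30 somites, wholly apart, with a difference of -0.72 ± 0.23. Irx3 had 1656, 810.3 and 1112, then 838, 716 and 662 and a difference of -0.62 ± 0.26, with 1 earlier array among the later ones, and was -0.36 without the first array of 21-25 somites. Hopx, an atypical homeodomain protein of heart and lung, had 538, 396 and 414, then 235, 313 and 335, also wholly apart, at -0.57 ± 0.27. Hnf4a and Hhex, genes of the liver-side endoderm, had lower means at 26-30 somites as well, and do not stand for other factors of that endoderm. Hnf4a, the hepatocyte nuclear receptor, had 329.8, 206 and 250.5 at 21-25 somites and 80.3, 270.4 and 49.0 at 26-30 somites, and its arrays overlap. Hhex, an early liver and thyroid homeobox gene chosen after its values were seen, had 478, 332 and 341, then 206, 285 and 275, wholly apart, and a difference of -0.54 ± 0.35. A second probe set of Hnf4a, above the filter, had a difference of 0.04 where the brighter one had -1.09 ± 0.51, and the latter was -0.68 without the third array of 26-30 somites and -1.67 without the second.

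Mesenchymal regulators had a median of 0.00 over 26 tested genes, with 13 above 0 and 13 below, and opposite sets at the ends. Beside Tbx5 and Isl1 on the higher side stood, on the lower side, Twist1, Meox1 and Prrx1. Twist1, a helix-loop-helix factor of cranial and body-wall mesenchyme, had 479, 243 and 319.8 at 21-25 somites and 119.9, 106 and 165 at 26-30 somites. All later arrays are below all earlier ones, the ratio of means was 0.38 and the difference -1.22 ± 0.27. Meox1, a homeobox gene of somites, had 766, 408 and 570.0 at 21-25 somites and 239, 238 and 309 at 26-30 somites, wholly apart, at -1.04 ± 0.27. Prrx1, a paired-related homeobox gene of limb and facial mesenchyme, had 1909, 1149 and 1313, then 908, 1040.4 and 671, wholly apart, at -0.71 ± 0.29. Musculin (Msc), a helix-loop-helix repressor of branchial muscle chosen after its values were seen, had 454, 574 and 749.8 at 21-25 somites and 981, 1122 and 1362 at 26-30 somites, wholly apart upward, with a wide error at 0.95 ± 0.52. The differences of Twist1 and Meox1 stayed between -1.44 and -0.98 and between -1.26 and -0.83 when each array was left out.

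The 9 tested genes of the pharyngeal apparatus had a median of -0.10, with 3 wholly apart, all lower. Tbx1, the T-box factor of pharyngeal pouches and second heart field, had 373, 319 and 429 at 21-25 somites and 262, 284 and 209 at 26-30 somites and a difference of -0.52 ± 0.23. Ripply3, a co-repressor that binds Tbx1 in pharyngeal endoderm, had 668, 797 and 611 at 21-25 somites and 472, 402 and 256 at 26-30 somites. Both had all later arrays below the earlier ones, and Ripply3 had the wider gap, -0.87 ± 0.32. Ripply3 had already read 1776, 746 and 971 at 16-20 somites, a first-interval difference of -0.64 ± 0.32. For 12 tested somite and dermomyotome genes the median was -0.12, with 4 above 0 (0.15 with 7 above 0 under array weights, a fit that gives less influence to arrays far from their stage mean, and 0.05 without 21-25 somites replicate 1), and Meox1 was the gene of that list with an unadjusted p under 0.05. Meox1, Tbx1 and Ripply3 mark tissue next to the lung field, and the labels do not say how much of that tissue each pool held; its part in these values was not tested.

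**Figure D2:**
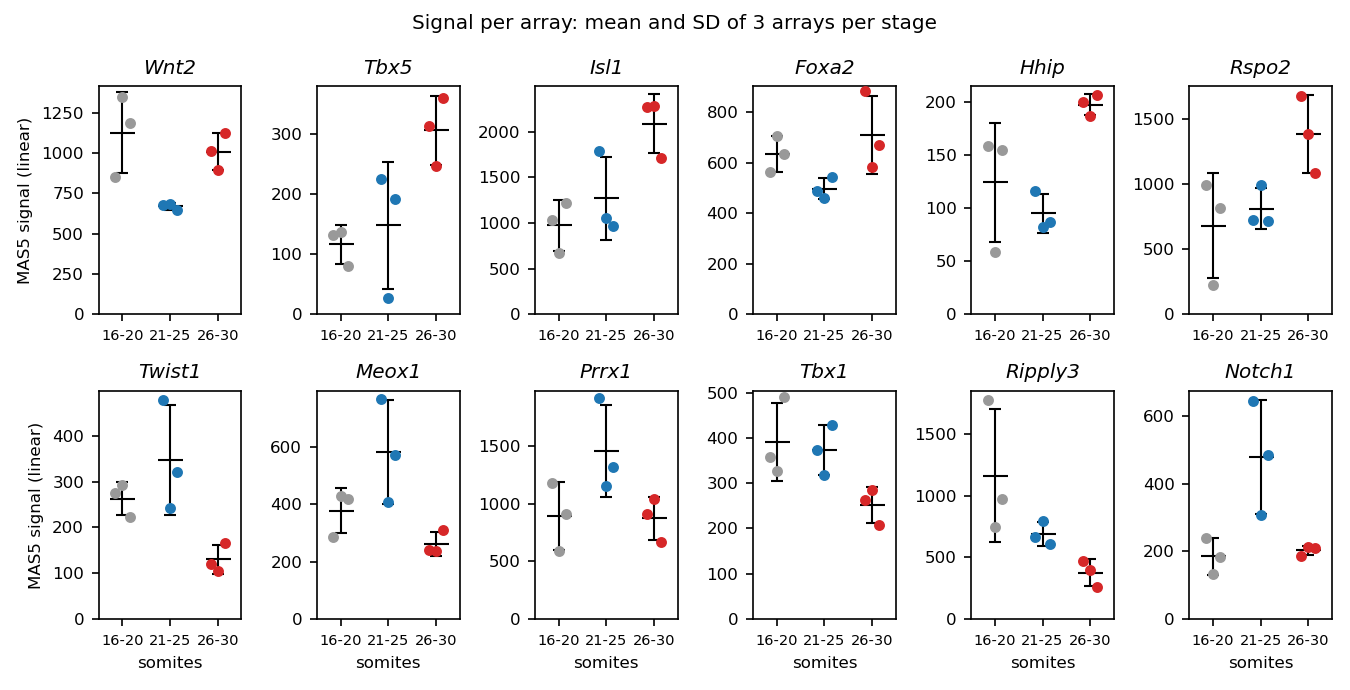
Linear MAS5 signal (vertical axes, from 0) of 12 genes in each array at 16-20, 21-25 and 26-30 somites (horizontal axes); points are arrays, the bar is the mean and the whiskers the SD of 3 arrays. In the upper row the later arrays of Wnt2, Tbx5, Foxa2, Hhip and Rspo2 lie above those of 21-25 somites and those of Isl1 overlap by 1 array; in the lower row all 6 genes have later arrays wholly below.

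Signalling lists were near 0 as groups. The share of genes wholly apart was 20.5% for WNT and 17.6% for FGF, against 9.37% of all tested genes. It was below that for hedgehog (7.7%), BMP and Notch (8.3% each), and 0.0% for TGF-beta and retinoid signalling. Single genes apart in the lists below that share are no excess. WNT signalling had a median of -0.06 over 39 tested genes, 19 above 0, with 8 wholly apart (5 higher, 3 lower). Among its positive components, the R-spondins, which raise the number of WNT receptors at the cell surface, were higher: Rspo1 had 279.8, 252 and 241, then 345, 404 and 375, and Rspo2, known for its role in lung bud outgrowth and chosen after its values were seen, had 726, 993 and 720.1 at 21-25 somites and 1681, 1390.3 and 1088 at 26-30 somites. Both were wholly apart, with differences of 0.50 ± 0.28 and 0.74 ± 0.43. Of the receptors, Ryk, a tyrosine-kinase-like WNT receptor, had 1029, 751 and 1212, then 1398, 2036 and 1456 and a difference of 0.70 ± 0.27, although a dimmer probe set of it read -0.17. The Frizzled receptors went separate ways: Fzd5 had 113, 36.6 and 84.5, then 152, 114 and 145, at 0.71 ± 0.36, and Fzd6 380.4, 536 and 455, then 331, 360.2 and 246, at -0.52 ± 0.23, both wholly apart, Fzd5 only just. Without the second array of 21-25 somites Fzd5 differed by 0.38.

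In the hedgehog list of 13 tested genes 6 were above 0, and Hhip was the single gene wholly apart. Hhip, a membrane protein that binds hedgehog ligand and is induced by it, had 116, 82.2 and 86.7 at 21-25 somites and 199.9, 187 and 206 at 26-30 somites. The ratio of mean signals was 2.08 and the difference was 0.89 ± 0.30. A second probe set, too dim for the filter, gave 0.64. Other inducible genes of the pathway had overlapping arrays. Ptch1, the receptor, had 8572, 6489 and 6683 at 21-25 somites and 7649, 7789.7 and 6143 at 26-30 somites and a difference of -0.01 ± 0.24 that changed sign under several settings, and Gli1, the transcriptional effector, had 302, 75.7 and 161, then 192, 208 and 216 and 0.33 ± 0.35. The FGF list of 17 tested genes had a median of -0.02. Its outermost genes were Spred1, a membrane inhibitor of Ras and ERK signalling, with 2808, 1860.5 and 3566 at 21-25 somites and 7101, 5925 and 3867 at 26-30 somites, and Fgf1, a ligand, with 129.8, 173 and 207, then 78.0, 127 and 92.0. They were wholly apart in opposite directions, at 1.03 ± 0.32 and -0.65 ± 0.27. For Fgf1 a second probe set below the filter gave -0.88, and for Spred1 2 others above it gave 0.32 and -0.38.

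BMP signalling had a median of 0.01 over 24 genes, and its genes with the smallest p were lower: Msx2, a homeobox target of BMP, had 164, 70.9 and 129, then 76.4, 66.2 and 47.1 at -0.68 ± 0.30, and Grem1, a secreted BMP antagonist, had 146, 114 and 116, then 77.1, 109 and 55.8 at -0.53 ± 0.25. Of these, Grem1 was wholly apart, and it was -0.35 without the third array of 26-30 somites. The list of TGF-beta signalling had a median of 0.17 with 12 of 18 above 0 and none wholly apart. For retinoid signalling the median was -0.01 over 17 genes, again with none wholly apart.

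Notch signalling, which governs choices between neighbouring cells in epithelium and vessels, had 8 of 24 tested genes above 0 and a median of -0.11. Notch1, the receptor, had 646, 308 and 486 at 21-25 somites and 188, 212 and 209.6 at 26-30 somites. Later arrays are tightly grouped and below every earlier one, with a ratio of 0.42 and a difference of -1.09 ± 0.29; a dimmer probe set gave -0.36. At 16-20 somites it had read 241, 133 and 182, so that its first interval was 1.23 ± 0.29 and the difference between the intervals -2.32 ± 0.49 (adjusted p = 0.754 in limma). Both intervals use the same 21-25 somites arrays. The target genes diverged: Hey1, a repressor induced by Notch, had 739.7, 481 and 773, then 472, 483 and 341 at -0.58 ± 0.24, and Hes1, another, had 259, 55.9 and 221, then 304, 276 and 247 at 0.75 ± 0.42, which was 0.18 without the second array of 21-25 somites. Psen2, a catalytic subunit of the protease that frees the Notch intracellular domain, had 115, 94.3 and 114, then 90.1, 26.0 and 76.0, wholly apart and dim, at -0.65 ± 0.31, or -0.29 without the second array of 26-30 somites. Per array the Notch median was highest in 21-25 somites replicate 1, at 0.43, and the list median without that array was 0.11.

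Guidance molecules had a median of -0.01 (31 tested) and G-protein signalling a median of 0.00 (57 tested). Stages were wholly apart in 9.7% of the guidance genes, near the 9.37% of all tested genes, and in 22.8% of the G-protein genes. Efnb2, the ephrin-B2 ligand of arterial endothelium and epithelial borders, had 625, 292 and 693 at 21-25 somites and 1534, 1008 and 1008 at 26-30 somites and a difference of 1.16 ± 0.42, while Efna2, an A-class ephrin, had 162, 179 and 158, then 85.3, 117 and 106 at -0.59 ± 0.26. Both were wholly apart, but a second probe set of Efnb2 gave 0.32. Of the G-protein genes, 4 had an unadjusted p under 0.05 and all were higher. Adcy7, an adenylyl cyclase, had 439.7, 400.2 and 205 at 21-25 somites and 778, 541 and 834 at 26-30 somites, a difference of 1.03 ± 0.29. Ackr3, a scavenging receptor for the chemokine Cxcl12, had 882, 608 and 629, then 1265, 1092 and 991 at 0.65 ± 0.23. Gnb2, a G-protein beta subunit, had 149.8, 135 and 310.0, then 507, 459 and 359.7 at 1.13 ± 0.44. Rgs4, which shortens G-protein signals, had 145, 91.8 and 109.8, then 161, 195 and 183 at 0.55 ± 0.23, with a second probe set at 0.93. In all 4 the stages were wholly apart. In the list as a whole 8 were apart upward and 5 downward.

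Hox genes encode position along the body axis, and Hoxa5 is known to be needed for lung and trachea form. Of 15 tested Hox genes 8 were above 0, with a median of 0.04. Hoxa5 had 205, 81.6 and 161 at 21-25 somites and 325, 208 and 246 at 26-30 somites, wholly apart by a narrow margin, at 0.75 ± 0.44. Its neighbour Hoxa4 had 122.9, 36.3 and 81.9, then 213, 188 and 115 at 0.95 ± 0.42, and Hoxa9 249.7, 40.9 and 232, then 251, 371 and 324 at 1.01 ± 0.45. In all 3 the second array of 21-25 somites was the lowest of the 6, and without it the differences were 0.44, 0.61 and 0.34. A second probe set of Hoxa9 gave -0.69. Hoxb1, the most anterior of those named and a target of retinoic acid, had 1143, 767 and 519, then 631, 445 and 404 at -0.64 ± 0.29, with overlapping arrays, and was -0.36 without the first array of 21-25 somites.

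Ranked by p alone, the genes at the top came from many processes. Among the 10 higher genes with the smallest p was Rcan2, a regulator of the phosphatase calcineurin, with 643, 692 and 751 at 21-25 somites and 1594, 1416 and 1349.6 at 26-30 somites. Its arrays are tight within each stage, the ratio of means was 2.09, and the difference was 1.04 ± 0.22. A dimmer probe set of Rcan2, below the filter, gave 0.01. Lamtor1, an anchor of mTORC1 on the lysosome, had 3099, 2555 and 4095 at 21-25 somites and 6019.8, 5707 and 5234 at 26-30 somites at 0.82 ± 0.22, with 2 other probe sets at 0.57 and 0.51. Pdcd4, an inhibitor of translation initiation, had 842, 1022 and 1139.5, then 1946, 2141 and 1605 at 0.91 ± 0.26. The remainder were Aqp3, a water and glycerol channel (1.14), Popdc3, a Popeye-domain membrane protein (1.01), Trappc12, a vesicle-tethering subunit (1.32), Adcy7, the Y-linked Kdm5d, and the erythroid genes Hemgn (1.32) and Slc4a1 (1.12). Aqp3 and Popdc3 were dim, with earlier signals of 26.8 to 41.8 and 26.8 to 66.2, at or little above the value of 26.2 added before the log. Other probe sets of Aqp3, below the filter, gave 0.03 and 0.04.

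Among the 10 lower genes with the smallest p the first was Cetn3, a centrin of the centrosome, with 1725, 1844 and 1619 at 21-25 somites and 687, 737 and 993 at 26-30 somites and a difference of -1.09 ± 0.22. Amot, an angiomotin that holds the Hippo effector YAP at junctions, had 5208, 4402 and 4154 at 21-25 somites and 2504, 2248 and 2601 at 26-30 somites at -0.89 ± 0.20. The 3 arrays of each stage were close together in both genes and clearly separated on these probe sets. A second probe set of Amot, dimmer but above the filter, differed by -0.09, and another, below the filter, by 0.35. Lifr, the receptor of leukaemia inhibitory factor, had 1151, 888 and 904, then 550.2, 509.6 and 329 at -1.06 ± 0.25, and Agrn, the basement membrane proteoglycan agrin, had 2390.0, 1365 and 1816, then 905, 952 and 762 at -1.04 ± 0.24. Kif1b, a kinesin motor, differed by -1.0 ± 0.22, and its 4 other probe sets that were bright enough by -0.61 to -0.18. The rest were Twist1, Meox1, Kazald1, a secreted protein related to the IGF-binding proteins (-1.02), Rimklb, a glutamate ligase (-1.44, with other probe sets at -0.84 and -0.33), and Rian, a noncoding RNA of an imprinted cluster (-1.21), whose second probe set gave 0.04.

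Several of these genes had their outermost mean at the middle stage. Lifr had read 392, 386 and 290.4 at 16-20 somites and so differed by 1.40 ± 0.25 in the first interval; the difference between the intervals was -2.46 ± 0.43, with an adjusted p of 0.608 in limma. Aqp3 had read 108, 173 and 111, differed by -1.36 ± 0.26 in the first interval, and had a difference between intervals of 2.49 ± 0.46, also with an adjusted p of 0.608. In contrast Cetn3, Kdm5d and Kazald1 had first-interval differences within 1 SE of 0, at 0.08 ± 0.22, -0.02 ± 0.27 and -0.19 ± 0.23. Over all genes 0 of 8675 (0%) passed the test of a difference between the intervals, and 547 (6.31%) had an unadjusted p under 0.05. Since both intervals use the arrays of 21-25 somites, a high or low value there enters them with opposite signs.

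**Figure D3:**
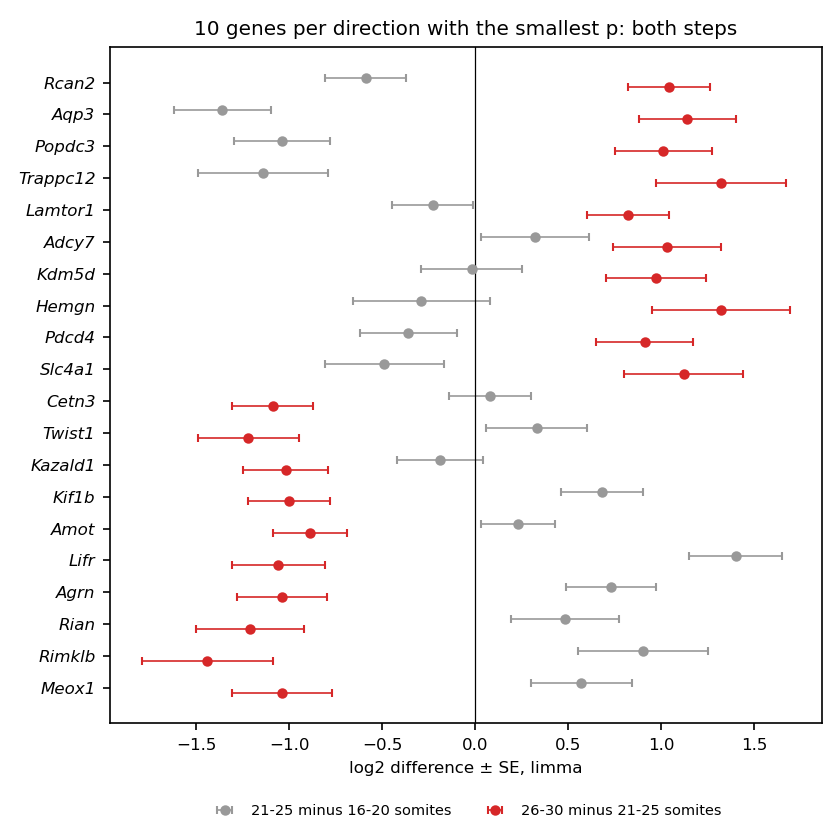
log2 difference ± SE from limma (horizontal axis) in both intervals for the 10 higher and 10 lower genes with the smallest p in 26-30 against 21-25 somites (vertical axis). The choice of genes fixes the side of the red points; the grey points of the first interval, which share the 21-25 somites arrays, run from -1.36 for Aqp3 to 1.40 for Lifr.

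Sterol synthesis is the pathway that makes cholesterol, a lipid that also modifies hedgehog protein. Its genes had 22 of 26 tested members above 0 and a median of 0.19. Of the 26, 1 had an unadjusted p under 0.05, 2 were wholly apart upward and 1 downward. That is 11.5% apart, against 9.37% of all tested genes. The pathway is switched as a unit by SREBP2, which binds sterol regulatory elements beside the factor NF-Y at CCAAT boxes. Promoters of 4 enzymes are shown because these genes are steps of the pathway with positive differences: Hmgcs1 makes HMG-CoA, and the others remove methyl groups from lanosterol and its products. Each is the run of 250 bases before the start site, 5′ to 3′ on the gene's strand, from RefSeq on GRCm38.p6, at chr13:119690101-119690350 (plus strand), chr5:4104698-4104947 (minus), chr8:64733579-64733828 (minus) and chrX:72918271-72918520 (plus). Capitals mark CCAAT on either strand (ATTGG when on the other) and, in Hmgcs1, the sterol element core TCACNCCAC.
Hmgcs1: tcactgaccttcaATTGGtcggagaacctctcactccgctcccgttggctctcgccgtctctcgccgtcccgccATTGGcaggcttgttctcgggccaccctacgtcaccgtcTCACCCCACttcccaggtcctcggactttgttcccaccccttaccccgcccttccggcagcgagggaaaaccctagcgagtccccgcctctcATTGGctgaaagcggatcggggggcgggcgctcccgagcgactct
Cyp51: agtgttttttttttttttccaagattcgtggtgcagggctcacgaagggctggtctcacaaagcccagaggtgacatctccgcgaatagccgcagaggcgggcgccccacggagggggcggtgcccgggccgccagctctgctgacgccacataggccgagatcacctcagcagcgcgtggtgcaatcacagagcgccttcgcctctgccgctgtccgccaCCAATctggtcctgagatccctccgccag
Msmo1: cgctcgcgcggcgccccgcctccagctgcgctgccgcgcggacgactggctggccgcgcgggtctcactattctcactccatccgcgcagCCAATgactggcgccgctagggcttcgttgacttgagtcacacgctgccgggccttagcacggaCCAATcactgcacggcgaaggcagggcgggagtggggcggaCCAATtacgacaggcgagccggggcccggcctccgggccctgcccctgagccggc
Nsdhl: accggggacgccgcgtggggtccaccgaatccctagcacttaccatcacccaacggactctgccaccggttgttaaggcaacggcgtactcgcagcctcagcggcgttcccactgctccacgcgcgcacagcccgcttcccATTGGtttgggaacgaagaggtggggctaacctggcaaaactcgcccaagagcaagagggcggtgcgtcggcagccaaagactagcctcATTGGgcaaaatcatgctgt

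CCAAT stood in this window in 18 of the 20 tested sterol genes that have one in the table, against 37.49% of 27025 genes and 33.85% of 32851 windows of this length, both strands searched. The element core TCACNCCAC, which does not overlap a CCAAT match in the windows shown, was found in 1 of the 20, Hmgcs1, against 1.22% of genes. Only this string, with N as any base, was searched, so sterol elements with other letters were not counted or marked. A match of letters is a description and no measure of binding. Cyp51, the lanosterol demethylase, had 549, 222 and 414 at 21-25 somites and 774, 632 and 558 at 26-30 somites, wholly apart, at 0.76 ± 0.29. Another probe set, nearly as bright, gave -0.18, and a dimmer one above the filter -0.0. On the probe set used, Cyp51 was 0.42 without the second array of 21-25 somites. Msmo1, the methyl oxidase that follows, had 285, 114 and 269.5, then 497, 447 and 256 at 0.81 ± 0.41, or 0.44 without that same array, and Nsdhl, the decarboxylase after it, had 791, 585 and 694, then 828, 903 and 864 at 0.32 ± 0.21. Hmgcs1, chosen after its values were seen, had 8111, 8629 and 12773, then 10623, 11230.0 and 13610.0 at 0.29 ± 0.23, with overlapping arrays; 3 other probe sets gave 0.11 to 0.30, and leaving out each array 0.16 to 0.49. Fdft1, squalene synthase and likewise chosen afterwards, differed by 0.39 ± 0.28, with other probe sets at 0.14 to 0.30 and values of 0.11 to 0.63 when each array was left out. Insig2, which holds SREBP back in the endoplasmic reticulum, went the other way, with 381, 556 and 382, then 300.2, 319 and 298, wholly apart, at -0.47 ± 0.23; it was -0.30 without the second array of 21-25 somites, and other probe sets gave -0.31 and -0.33. Without the narrow-range arrays the median of the list was 0.04.

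Fatty acid genes had a median of -0.12 (0.02 without the narrow-range arrays), with 10 of 25 above 0, and 8 were wholly apart, 7 of them lower. The desaturases that act in sequence on polyunsaturated fatty acids diverged: Fads2 had 489.5, 342 and 486 at 21-25 somites and 681, 699 and 573 at 26-30 somites at 0.55 ± 0.22, and Fads1 had 1914, 2266 and 1748, then 1247, 1543 and 1645 at -0.41 ± 0.21, both wholly apart. A second probe set of Fads2 gave -0.07.

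Genes of the actin cytoskeleton and its regulators, the machinery of cell shape as epithelium bends, had 32 of 42 tested members above 0 and a median of 0.18, and the median was 0.13 to 0.21 in every setting tried. Of these genes 4 had an unadjusted p under 0.05, all higher, and 6 were wholly apart, all higher. Capza2, which caps actin filaments, had 3770.4, 2282 and 3714 at 21-25 somites and 5146, 5008 and 4219 at 26-30 somites, wholly apart, at 0.58 ± 0.24, but a second probe set, nearly as bright, differed by 0.03. Arpc1a and Arpc4, subunits of the branching Arp2/3 complex, differed by 0.81 ± 0.34 and 1.04 ± 0.45, with a second probe set of Arpc4, of like brightness, at 0.39, and the actin monomer binder profilin (Pfn1) by 0.89 ± 0.41. The array with the highest actin 3' to 5' ratio, 21-25 somites replicate 2, was the lowest of the 6 in Capza2, Arpc1a, Arpc4 and Pfn1, and without it Capza2, Arpc1a and Pfn1 differed by 0.35, 0.43 and 0.44 (Pfn1 by 1.39 without replicate 3 of that stage). Per array, the median deviation of the list was -0.01, -0.23 and -0.06 at 21-25 somites and 0.15, 0.14 and -0.01 at 26-30 somites. The part of RNA length in these values was not tested.

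Vesicle traffic genes were above 0 in 107 of 162 tested members, with a small median of 0.06. Of them 15 were wholly apart (12 higher, 3 lower), a share of 9.3% against 9.37% of all tested genes. Vamp7, a SNARE of late endosomes, had 530.4, 341 and 578 at 21-25 somites and 845, 932 and 746 at 26-30 somites at 0.80 ± 0.26, although a second, dimmer probe set above the filter gave 0.05, and Trappc12 had 43.7, 36.8 and 119, then 181, 151 and 246 at 1.32 ± 0.35. Redox genes had 33 of 46 above 0, a median of 0.13 and 4 wholly apart (8.7%), all higher. None of them had an unadjusted p under 0.05. Genes of the primary cilium, the organelle through which hedgehog signal passes, had a median of -0.15 with 9 of 27 above 0. Pkd1, a ciliary membrane receptor, had 184, 134 and 175, then 104, 115 and 97.6 at -0.52 ± 0.23, and Ift46, a subunit of intraflagellar transport, had 745, 787 and 988, then 1193, 1052 and 1142 at 0.42 ± 0.21, opposite and both wholly apart.

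Cell cycle lists lay near 0: the median was -0.02 for 60 replication genes and -0.03 for 59 mitosis genes. All of their members with an unadjusted p under 0.05 were lower at 26-30 somites, 4 for replication and 3 for mitosis. Pole, the leading-strand polymerase, had 676, 379.6 and 418, then 300.5, 273 and 319.5 at -0.64 ± 0.24; Msh6, a mismatch sensor, had 2118, 1717 and 1821, then 1564, 1326 and 1096 at -0.51 ± 0.21; Cdc7, the kinase that fires origins, differed by -0.54 ± 0.24, and Brca2, a repair protein of replication forks, by -0.53 ± 0.24 (-0.35 without 26-30 somites replicate 2). For mitosis, Mki67, the coat protein of mitotic chromosomes, had 8052, 4254 and 6428 at 21-25 somites and 4183, 3425 and 4021 at 26-30 somites at -0.64 ± 0.25, Aspm, a spindle pole protein, had 1785, 1217 and 1353, then 1052, 720.0 and 1048 at -0.62 ± 0.24, and Cenpf, a kinetochore protein, 5234, 9036 and 5008, then 3135, 3102 and 5347 at -0.73 ± 0.30. Cenpf was -0.45 without the second array of 21-25 somites, and a dimmer probe set of it gave -0.20. Pole and Cdc7 were highest in 21-25 somites replicate 1, and without it differed by -0.39 and -0.35. Control of entry into the cycle had 23 of 32 genes above 0 and a median of 0.15, with 2 wholly apart. One of these was Cdkn1a, the inhibitor p21, with 319, 347 and 296 at 21-25 somites and 439, 454 and 562 at 26-30 somites at 0.55 ± 0.20.

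Large housekeeping complexes had medians close to 0 in this interval as fitted, after negative medians in the one before, but these medians moved with the arrays used. For 45 tested genes of the cytosolic ribosome the median was 0.00, with 21 above 0, and had been -0.54 from 16-20 to 21-25 somites. The mitochondrial ribosome had 0.04 over 75 genes (-0.46 before), the respiratory chain 0.04 over 78 genes (-0.40 before) and the proteasome 0.08 over 44 genes (-0.41 before). The intervals share arrays, and the spread within a stage was wide for these lists: per array, the ribosomal median deviation was -0.53, 0.14 and 0.40 at 21-25 somites and -0.11, -0.37 and 0.45 at 26-30 somites. Leaving out each array moved the median from -0.27 (without 21-25 somites replicate 1) to 0.18 (without 26-30 somites replicate 2) for the cytosolic ribosome and from -0.29 to 0.19 for the respiratory chain, by leaving out replicates 1 and 2 of 21-25 somites. Under array weights the cytosolic ribosome was at -0.32 with 1 of 45 genes above 0, the respiratory chain at -0.19 with 20 of 78, the mitochondrial ribosome at -0.07 and the proteasome at -0.09, so no direction or lack of change can be read for them. The lowest values are those of the narrow-range arrays at both stages. Of the proteasome genes 9.1% were wholly apart, against 9.37% of all tested genes. Single proteasome genes were apart: Psmc3, a base ATPase, had 1661, 1036 and 2328 at 21-25 somites and 2875, 3532 and 2402 at 26-30 somites at 0.86 ± 0.31, and Psmd2, a ubiquitin-docking subunit, 3729, 2593 and 3833, then 4566, 5268 and 4734 at 0.54 ± 0.24. Psmd13, a lid subunit, had 439, 326 and 1673, then 988, 1014 and 1677 at 0.90 ± 0.47, a wide error with a sign that changed under array weights. Without the second array of 21-25 somites Psmc3 was 0.55 and Psmd13 0.45, and Psmd13 was 1.59 without the third; its second probe set gave 0.62.

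Splicing genes had a median of 0.04 over 110 tested, with 4 at an unadjusted p under 0.05 in each direction. U2af1, which reads the 3' splice site, had 919.8, 302 and 1619.6, then 1623, 1526 and 1697 at 1.04 ± 0.44, and Snrpb2, a U2 particle protein chosen after its values were seen, had 784, 400.4 and 1084, then 1250.2, 1135 and 1124 at 0.72 ± 0.32. Both were lowest in 21-25 somites replicate 2, and without it differed by 0.39 and 0.33. On the lower side Prpf39, a U1-associated protein, had 829, 508 and 369, then 240.2, 307 and 230.0 at -1.0 ± 0.31, and Rbm38, an RNA-binding target of p53, had 179, 275 and 212, then 82.0, 115 and 124 at -0.89 ± 0.24, both wholly apart. Chromatin regulators had a median of 0.01 over 99 genes (0.22 in the interval before), which was 0.19 and -0.15 without replicates 1 and 2 of 21-25 somites.

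**Figure D4:**
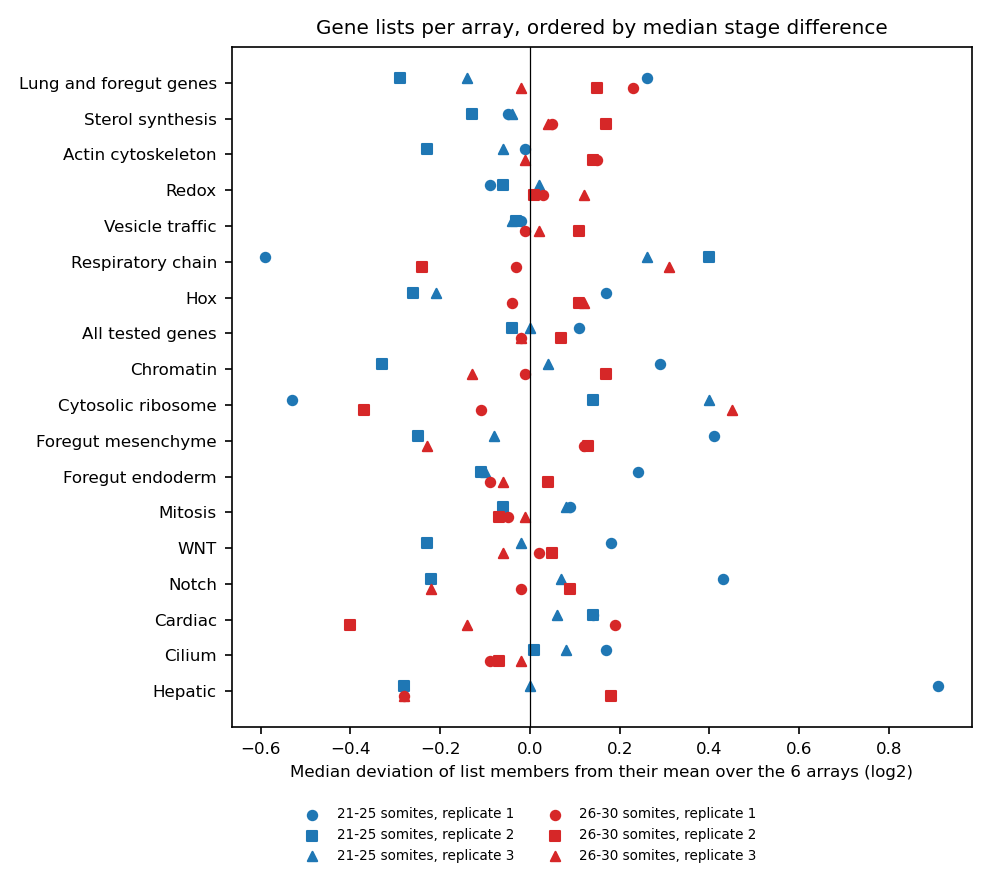
Median deviation, on the log2 scale, of the tested members of each list from their own mean over the 6 arrays (horizontal axis), for 17 lists and all tested genes (vertical axis, ordered by median stage difference); colour gives the stage and symbol the replicate. All later arrays lie above all earlier ones for sterol synthesis and vesicle traffic and below them for the cilium; for the cytosolic ribosome the arrays of 21-25 somites alone span -0.53 to 0.40.

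Markers of neighbouring tissue varied among the arrays of a stage. Cardiac markers had 4 of 22 tested genes above 0 and a median of -0.15 (0.00 without 26-30 somites replicate 2); the summed signal of all 30 on the array was 7779 to 8077 at 21-25 somites and 4165 to 9718 at 26-30 somites. Myh7, the slow cardiac myosin, had 409, 357 and 597, then 237, 154 and 188 at -1.12 ± 0.44, while Myh6, its partner, had 1945, 1548 and 1398, then 1837, 306 and 625 at -1.15 ± 0.78, with overlap and values of -1.82 to -0.57 when each array was left out. Smpx, a small muscle protein, went the other way at 0.63 ± 0.25. The heart had been dissected off, and Isl1, Tbx5 and Hopx are also heart genes; the part of residual heart tissue in their values was not tested. Of the defining markers of this and the other tissues on the array, none was listed at 0 in the 6 arrays.

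Hepatic markers had 3 of 17 tested genes above 0, the lowest median of the lists given here, -0.34, and none wholly apart; the summed signal of 29 genes was 4020 to 14116 at 21-25 and 3617 to 6149 at 26-30 somites, the order kept below. Alpha-fetoprotein (Afp), an early liver secretion, had 5974, 550.4 and 2076 at 21-25 somites and 1076, 1334 and 494 at 26-30 somites, a difference of -1.07 ± 0.83 that ran from -1.95 to -0.26 when each array was left out. The single high array, 21-25 somites replicate 1, also stood out in the liver secretion transthyretin (Ttr), chosen after its values were seen, with 1646, 608 and 1102, then 352, 892 and 520.2 (a difference of -0.89, or -0.56 without that array), and the list median ran from -0.71 to -0.02 when each array was left out. Of the defining liver markers Apoa1 and Fgb were below the filter, at no more than 67.2. Liver endoderm adjoins the rear cut of the dissection, and the lower means of Hnf4a and Hhex stand beside these values; the part of liver tissue was not tested.

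Endothelial markers had a median of -0.04 over 35 genes, with 17 above 0 and 18 below, and a summed signal over 45 genes of 12824 to 18858 and 14003 to 17717. Tek, the angiopoietin receptor, had 597, 379 and 417, then 302, 355 and 203 at -0.65 ± 0.26, and Kdr, the VEGF receptor, 729, 371 and 694, then 414, 409.9 and 317 at -0.57 ± 0.27, or -0.87 without the second array of 21-25 somites. Neural crest and neuron markers had a median of -0.03 over 26 genes, with 12 above 0 and 14 below, summed at 8923 to 11543 and 11030 to 12008 over 42. In that list Neurog2, a proneural factor, had 182, 65.1 and 161 at 21-25 somites and 15.7, 52.5 and 35.8 at 26-30 somites, dim and wholly apart, at -1.37 ± 0.39. Isl1, described above and also in that list, was the other member with an unadjusted p under 0.05 and was higher. All 8 tested markers of surface ectoderm were below 0, with a median of -0.16 and none wholly apart, but under array weights 4 of the 8 were above 0 and the median was 0.03. The macrophage list had 9 tested genes and a median of -0.08, which was 0.23 under array weights. Their summed signals were 1308 to 2146 and 1030 to 1567 for surface ectoderm, and 2157 to 3036 and 2316 to 2771 for macrophages.

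Blood, epithelial and matrix genes are given only as the setting of the rest. Erythroid genes had 16 of 21 above 0 and a median of 0.24 (0.08 without 26-30 somites replicate 3, and likewise without 21-25 somites replicate 1), with a summed signal of 25913 to 45113 and 29656 to 70720; the highest was 26-30 somites replicate 3, where the embryonic globin Hba-x read 3779, against 290 to 1141 in the other 5 arrays. Epithelial genes had a median of 0.08 (14 of 24 above 0), which was -0.02 without 21-25 somites replicate 2. Of these genes 2 were wholly apart upward and 2 downward. The upward ones were Krt7, a keratin of simple epithelium, at 0.73 ± 0.23, and the protease inhibitor Spint2 at 0.73 ± 0.28 (1.18 on a second probe set). Matrix genes had a median of -0.12 (26 of 78 above 0; 0.03 without 21-25 somites replicate 1), with fibronectin (Fn1) at -0.92 ± 0.24 and collagen IV (Col4a1) at -0.58 ± 0.23, or -0.38 without that array and -0.26 on a second probe set. For Fn1 another probe set, below the filter, gave 0.13. Cdh2, the cadherin of mesenchymal and neural cells, had 884, 957 and 704, then 564, 605 and 552 at -0.53 ± 0.22, with a second probe set at -0.23. Zeb1, a repressor of epithelial genes, had 2345, 2411 and 1820.3, then 1490.4, 1532 and 1431 at -0.54 ± 0.23. Both were wholly apart and lower. In the adhesion list that holds Cdh2, 16 of 27 tested genes were above 0 and 11 below, with 2 wholly apart upward and 1 downward.

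The Y-linked genes named here had higher signals at 26-30 somites. Kdm5d, a histone demethylase, had 124, 71.8 and 117 at 21-25 somites and 278, 232 and 177 at 26-30 somites at 0.97 ± 0.27; Eif2s3y, a translation initiation subunit, had 202, 385 and 199, then 582, 462 and 404 at 0.87 ± 0.30; and Uty, also a demethylase family member and chosen after its values were seen, had 112, 86.6 and 79.5, then 197, 173 and 175 at 0.81 ± 0.24. In each, all later arrays were above all earlier ones. Xist, the RNA of the inactive X chromosome, chosen likewise, had 6351, 908 and 3299 at 21-25 somites and 1583, 3010.3 and 1228 at 26-30 somites, with wide overlap and a difference of -0.56 ± 0.68; a second probe set gave -1.41, and leaving out each array -1.33 to 0.05. No label gives the number of male and female embryos in a pool, and the part of sex in the other differences was not tested. Other probe sets of Kdm5d gave 0.26 and -0.19. For Uty another probe set, below the filter, gave 0.03.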

How the data were processed

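RNA of dissected mid-foregut was measured on 9 Affymetrix arrays, 3 pools per stage. The deposited intensity of each probe set came from MAS5, per the submitters' processing notes, which name no version or scaling target; detection calls were not used here. The values are linear, and each array's mean after trimming 2% at each end was 500.2 or 500.3, as after scaling to a common target. The number of arrays limits the precision, and p-values measure the spread between pools.

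Of 22690 probe sets, 64 controls, 691 with several gene symbols and 1555 with none were left out, and 20351 of the 20380 with 1 symbol matched a RefSeq gene table. A gene was represented by its brightest probe set (12393 genes). Values were taken to log2 after adding 26.2, their 20th percentile, and the 8675 genes above the 30th percentile of gene means were tested. A mean per stage was estimated from all 9 arrays with limma 3.58.1 in R 4.3.3 (lmFit, eBayes with a trend), two-sided, with Benjamini-Hochberg adjustment at 0.05. The limma step was tested on simulated data with 3 arrays per stage and 200 of 8675 genes changed. It recovered 37.4% of log2 changes of 1 and 75.8% of changes of 1.5, so most changes of 1 were missed. Identical arrays were looked for, and 0 pairs found.

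The comparison, its gene lists and the alternatives were chosen with earlier results of these data known, so lists are described by counts and medians and not tested. Named genes were the 10 per direction with the smallest p, up to 5 per list with the smallest p and the tested lung and foregut genes; any other is said to be chosen after its values were seen. Another probe set above the filter existed for 35 of the genes named, and its difference had the opposite sign in 8. Probe sets below the filter are quoted for some genes only. Promoter sequences are RefSeq's, on GRCm38.p6. Alternatives covered normalization, pseudocount, filter, variance model, weights per array, a replicate block, probe sets, arrays fitted and signal range.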

Additional observations from a re-analysis of the deposited data

How the results depend on the processing

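The count of genes with an adjusted p under 0.05 was 0 in 21 of 22 alternative settings of the limma fit, with a smallest adjusted p between 0.237 and 1 in those. With array weights, which ran from 0.333 for 21-25 somites replicate 2 to 3.38 for 26-30 somites replicate 1, it was 29 (11 higher, 18 lower), among them Twist1 (-1.26), Meox1 (-1.13), Notch1 (-1.19), Neurog2 (-1.78), Fn1 (-0.99), Agrn (-1.0), Cetn3 (-1.14), Adcy7 (1.49) and Rcan2 (1.02), each with an adjusted p of 0.0341, and 1551 genes had an unadjusted p under 0.05. Such weights give most influence to arrays near their stage mean, and the cause of this difference was not tested. The unadjusted count, 355 as reported, was 192 to 784 when each array was left out, the highest without 21-25 somites replicate 1 and the lowest without 26-30 somites replicate 1 (222 without its replicate 2); it was 147 in a fit lacking the narrow-range arrays, where the lone array of 26-30 somites is assumed to vary like the others, and 549 when each array's 99th percentile was a covariate. The replicate numbers are not stated to pair samples. Same-numbered arrays of the 2 stages deviated with correlations of 0.26, -0.28 and 0.18, which do not settle whether they pair. With the replicate block in the limma fit 0 genes passed and 312 had an unadjusted p under 0.05, and no list median moved.

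Medians that moved by more than their spread were, with array weights, lung and foregut 0.46, redox 0.03, replication -0.07 and macrophage 0.23; lacking the narrow-range arrays, Hox 0.26, sterol 0.04, fatty acid 0.02, mitosis 0.07, cilium -0.04, endothelial 0.15 and erythroid 0.61; with the filter at the 50th percentile, foregut endoderm -0.19 and cilium -0.07; with the mean of all probe sets, replication 0.02 and cilium -0.03. When each array was left out, the ranges of those that moved were 0.09 to 0.47 for lung and foregut, 0.00 to 0.23 for Hox, 0.14 to 0.28 for sterol, 0.05 to 0.11 for vesicle traffic, 0.03 to 0.19 for redox, -0.04 to 0.06 for replication, -0.17 to -0.07 for cilium and -0.19 to 0.18 for macrophage; the matrix median ran from -0.20 to 0.03. Of 120 named genes 11 changed sign in some setting. When each array was left out, the differences ran from -0.10 to 0.17 for Gata4, -0.17 to 0.15 for Fgfr2, -0.08 to 0.12 for Ptch1, -0.08 to 0.24 for Barx1, -0.08 to 0.71 for Id2, -0.10 to 0.74 for Gli1, -0.64 to 0.38 for Dkk1 and -1.33 to 0.05 for Xist. In the fit lacking the narrow-range arrays, Fgfr2 was 0.30, Barx1 -0.16 and Fdft1 -0.03. With array weights Hmgcs1 was -0.08 and Psmd13 -0.22. Ptch1 was 0.01 with quantile normalization, 0.13 with array weights and 0.19 with all probe sets averaged. The causes were not tested.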
